A study of Homo sapiens with 4 samples.

Results

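Of the 4208 genes in the table, 362 were abundant upstream of their polyadenylation site (PAS) in untreated cells and had little RNA beyond it. They were chosen as protein-coding transcripts longer than 4000 nt and up to 150000 nt with a mean of at least 100 normalised upstream reads in UV- and downstream reads below 10% of the upstream reads in UV-, and 7 genes with symbols beginning RPL or RPS that met these limits were left out. A549 cells, an established human line from a non-small cell lung tumor, were given a UV dose of 40 J/m2 at 254 nm and left to recover for 16 h (UV+), or were not irradiated (UV-). Total RNA of the nuclei, without ribosomal RNA, was made into stranded sequencing libraries, 2 for each condition. Reads were counted in a window of 500 nt upstream of each PAS, called total RNA, and in a window of 500 nt downstream, called PAS-uncleaved RNA. Since the 2 windows have the same length, their normalised read counts can be set against each other, and the downstream reads are given below as a percentage of the upstream reads. The UV- values chose the genes, so that any difference between UV- and UV+ in these genes is a description and carries no test unless it was measured against a UV- library that took no part in the choice.

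Pre-mRNA 3′-end processing begins when the cleavage and polyadenylation machinery binds a hexamer, most often AAUAAA, before the PAS and a U-rich or GU-rich element after it. The RNA is then cut at the PAS, the upstream fragment receives its poly(A) tail, and the fragment still attached to RNA polymerase II is degraded until transcription terminates. Reads beyond the PAS can come from RNA that has not been cut there, from the fragment left after the cut until it is degraded, or from a transcript that uses a later PAS. In nuclear RNA both uncut RNA and finished transcripts that have not left the nucleus are counted upstream.

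Across the 4 libraries the upstream windows of all genes held 262657 to 481798 reads and the downstream windows 50814 to 92566 reads. Beside the 4 of 8 epithelial and A549 markers with a row (ALDH1A1, AKR1B10, KRT7 and KRT18, all of them among the 362 genes), 0 of 12 markers of blood, endothelial and fibroblast cells had a row. Values were scaled by library, and a fall of a gene's reads in such bulk RNA cannot be told apart from fewer cells that express it. To be in the table, a gene needed 10 reads or more in each window in at least 1 condition. A marker without a row is therefore not shown to be unexpressed. Among the 362 genes, 190 reached 10 downstream reads in both conditions, summed over the 2 libraries, 80 in UV- alone and 92 in UV+ alone. The 92 genes are in the table only because their downstream reads reached 10 in UV+ while they stayed below 10 in UV-. Entry by this route favours a higher UV+ value, and 86 of the 92 had a higher percentage in UV+. The main counts and the medians of most lists are therefore also given for the other 270 genes. These 270 are not free of such a bias, since entry through UV- alone favours a lower UV+ value. The percentage was higher in UV+ in 16 of those 80 genes, and in 129 of the 190 that reached 10 reads in both conditions.

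The PAS of these genes carried the usual signals. The hexamer AATAAA was found within the last 50 nt before the PAS in 270 of 362 genes (74.6%), against 86 of 143 (60.1%) of genes that met the same upstream minimum but were at or above the limit of 10% and 58.0% of all genes. ATTAAA without AATAAA was found in 51 genes (14.1%), one of 9 rarer variants in 24 (6.63%) and none of these in 17 (4.70%). Within the first 60 nt after the PAS, TGTGT was found in 88 of the 362 genes (24.3%) and in 18% of all genes, and TTTTT in 124 (34.3%) and in 28.3% of all genes. All motifs were read on the strand of the gene. These are matches of letters and not mapped binding sites. Of the 8 genes with the highest UV+ percentages described below, all but TNFRSF1A (ACTAAA) and TBC1D8 (none found) had AATAAA, and of the 8 with the lowest all but TM4SF4 (AAAAAG). The sequences that follow are those of 4 genes with high and 4 with low UV+ percentages, picked among those with AATAAA, to show what surrounds the same hexamer in both. Each sequence is 30 bases of hg19 written 5′ to 3′. Capitals mark AATAAA before the PAS, and TGTGT or a run of at least 5 T after it.
MAT2A, before the PAS, chr2:85772374-85772403, plus strand: atctaAATAAAatgctaggttctaccttaa
MAT2A, after the PAS, chr2:85772404-85772433, plus strand: cTGTGTctgttactcatttgttaaagtgct
PSMD6, before the PAS, chr3:63996225-63996254, minus strand: aAATAAAtactgcattgttgtttctttcca
PSMD6, after the PAS, chr3:63996195-63996224, minus strand: tttaTTTTTTTcttaaacacataggccttc
MRPL18, before the PAS, chr6:160219432-160219461, plus strand: tacaaAATAAAggcatattatgaactctta
MRPL18, after the PAS, chr6:160219462-160219491, plus strand: ttttctggttatatgacattgtctgagctc
RSL24D1, before the PAS, chr15:55473512-55473541, minus strand: gtacataaAATAAAaccatttaaaaagtaa
RSL24D1, after the PAS, chr15:55473482-55473511, minus strand: tgctgatatttattctttaaaggcactaaa
STT3B, before the PAS, chr3:31679085-31679114, plus strand: gaAATAAAgttaattcaaattttgtgttaa
STT3B, after the PAS, chr3:31679115-31679144, plus strand: gtgttgTTTTTTacaaatcttttggttttg
EBP, before the PAS, chrX:48387075-48387104, plus strand: aaatcaggaAATAAAagatcttgactctaa
EBP, after the PAS, chrX:48387105-48387134, plus strand: cactgagagatccttaattactaaccccag
FGG, before the PAS, chr4:155525286-155525315, minus strand: tcAATAAAccttttgtttcctaagactaga
FGG, after the PAS, chr4:155525256-155525285, minus strand: tacatggtacctttattgaccattaaaaac
ANXA1, before the PAS, chr9:75785281-75785310, plus strand: gctgaaAATAAAatgacgtcacaagacaat
ANXA1, after the PAS, chr9:75785311-75785340, plus strand: tggTGTGTcattgactcttctattttgatt
AATAAA began 25, 29, 25 and 22 nt before the PAS in MAT2A, PSMD6, MRPL18 and RSL24D1, and 28, 21, 28 and 24 nt before it in STT3B, EBP, FGG and ANXA1. TGTGT stood in the first 30 nt after the PAS of MAT2A and ANXA1, and a T run after that of PSMD6 and STT3B, so that neither motif was limited to the genes with high or with low UV+ values. Across the 362 genes, the median UV+ percentage was 4.29% with AATAAA, 4.33% with ATTAAA, 6.64% with a rarer variant and 4.44% with none. Among the 270 genes that entered through UV- it was 4.34% with AATAAA and 4.38% with ATTAAA. Across the 362 genes it was 3.74% in the 88 with TGTGT and 4.62% in the 274 without this motif. Their UV- medians stood in the reverse order, 4.11% with TGTGT and 3.57% without. The routes into the table also differed, as TGTGT was found in 27.0% of the 270 genes and in 16.3% of the 92 that entered only through UV+.

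The median downstream percentage of the 362 genes was 3.66% in UV- and 4.41% in UV+. In single libraries it was 3.33% and 3.53% in UV- replicates 1 and 2 and 4.70% and 3.65% in UV+ replicates 1 and 2, so that UV+ replicate 2 lay close to the UV- libraries. The 270 genes that entered through their UV- reads had medians of 4.61% in UV- and 4.48% in UV+. The 92 genes that entered only through UV+ had medians of 1.27% and 4.31%. Within the 270, the 80 genes that entered through UV- alone had medians of 4.41% in UV- and 2.19% in UV+. The 190 that entered through both conditions had 4.71% and 5.92%. Summed over all 362 genes, the downstream reads were 3.18% and 2.97% of the upstream reads in the UV- libraries and 3.50% and 3.24% in the UV+ libraries. In the plot of UV- against UV+ percentages the genes spread far to both sides of equality, from 0% to 58.2% in UV+, where by the rule UV- ends below 10%.

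**Figure D1:**
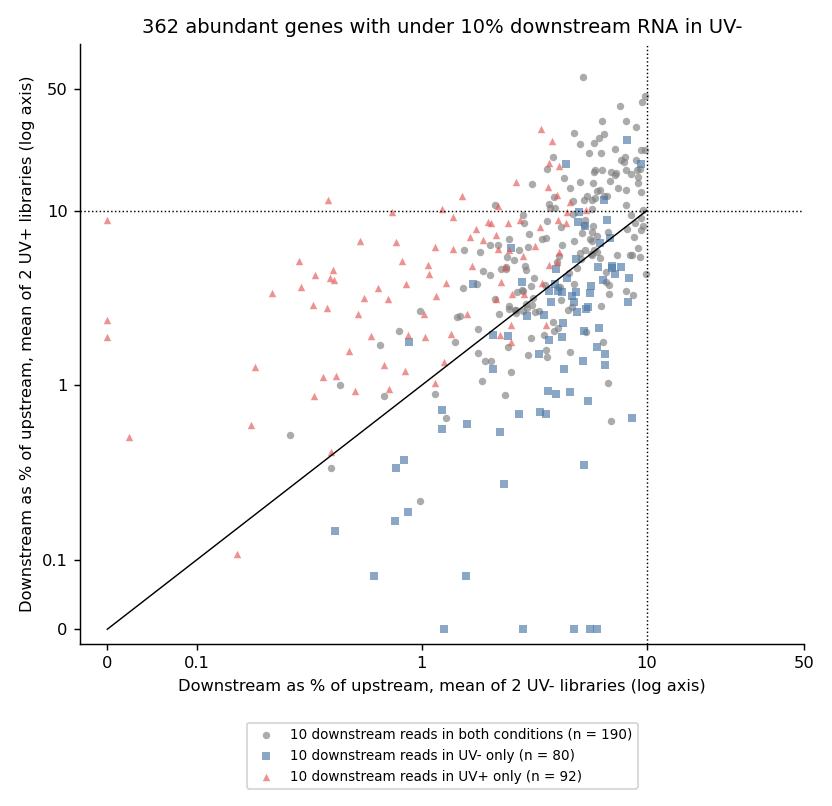
Downstream reads as a percentage of upstream reads in UV- (horizontal) and UV+ (vertical) for the 362 genes, each a mean of 2 libraries on log axes with 0 drawn at the edge; the solid line marks equal values and the dotted lines the limit of 10%. The 92 genes with 10 downstream reads in UV+ alone (triangles) lie mostly above the line, and the 80 with them in UV- alone (squares) mostly below it.

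Most of the genes stayed below 10% after UV. In both UV+ libraries 247 genes were below 10%, 66 reached 10% in one of them, and 49 (13.5%) reached it in both. With an upstream minimum of 200 instead of 100, 11 of 191 genes (5.76%) reached it in both. Of these 49, 42 belonged to the 270 genes that entered through UV- and 7 to the 92 others. In UV-, where the rule held the mean below 10%, 38 genes reached 10% in one library and 0 in both. The 143 genes that met the same upstream minimum but were at or above 10% in UV- had fewer upstream reads, with a median of 143 normalised reads against 215. Among them the median percentage was 19.2% in UV- and 27.5% in UV+, and 106 were at or above 10% in both UV+ libraries. The conditions did not overlap, with both UV+ libraries above both UV- libraries, in 137 of the 362 genes and in 32.7% of all genes with a ratio in every library, and in the opposite direction in 62 of the 362 and in 14.5% of all. Of the 137, 56 were among the 92 genes that entered only through UV+. Among the 270 that entered through UV- the counts were 81 (30.0%) and 62 (23.0%). The mean percentage was higher in UV+ in 231 of the 362 genes (63.8%), in 145 of the 270 (53.7%) and in 63.9% of all genes. Just inside the limit, TNFRSF1A had 9.81% in UV- and 45.5% in UV+, NCKAP1 9.83% and 22.3%, and IL13RA1 9.95% and 4.31%. Just outside it, MAGT1 had 10.2% and 2.88%, and CYFIP1 10.3% and 4.47%. Of these genes, TNFRSF1A and NCKAP1 had higher percentages in UV+ and the others lower ones.

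The 8 genes described next had the highest UV+ percentages among those with at least 10 downstream reads in each UV+ library. TNFRSF1A, which encodes a receptor of tumor necrosis factor, had 9 and 17 downstream reads in the UV- libraries and 14 and 12 in the UV+ libraries, next to upstream reads that numbered 109 and 144 in UV- but 36 and 22 in UV+. Its percentages were thus 8.26% and 11.8% in UV- and 38.9% and 54.5% in UV+, with little change of the downstream reads. In MAT2A, whose product makes S-adenosylmethionine, the downstream reads were 5 and 16 in UV- and 61 and 38 in UV+, and the upstream mean in UV+ was 0.968 times that in UV-. MAT2A went from 5.88% and 14% to 44.2% and 39.6%, here through more downstream reads. PSMD6, a subunit of the regulatory particle of the proteasome, had 10 and 21 downstream reads in UV- and 74 and 56 in UV+, which are 6.71%, 8.47%, 33.2% and 50.5% of its upstream reads. MRPL18, a protein of the large subunit of the mitochondrial ribosome, had 10 and 13 downstream reads in UV- and 103 and 73 in UV+, or 4.72%, 4.81%, 30.5% and 25.0%. In both genes the UV+ libraries lay far above the UV- libraries. RSL24D1, a factor of large ribosomal subunit assembly, went from 5.83% and 11.9% to 28.2% and 32.1%, and its whole downstream window of 500 nt is annotated as exon. The RNA helicase DDX17 had 11.5% and 5.99% in UV- and 22.9% and 41.3% in UV+. DDX23, a helicase of the U5 snRNP, had 6.15% and 1.34% in UV- and 16.7% and 37.8% in UV+, from 4 and 2 downstream reads in UV- and 10 and 28 in UV+, and it entered the table only through UV+. TBC1D8, of the TBC domain family, had 6.0% and 6.76% in UV- and 30.6% and 34% in UV+, and its upstream reads numbered 150 and 207 in UV- but 49 and 47 in UV+. In all 8 genes both UV+ libraries were above both UV- libraries. They were chosen for their UV+ values, so this is a description. BLMH, a cysteine hydrolase that was singled out after its values were seen, had a still higher UV+ mean of 58.2%, but from 14 and 9 downstream reads beside 27 and 13 upstream reads.

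**Figure D2:**
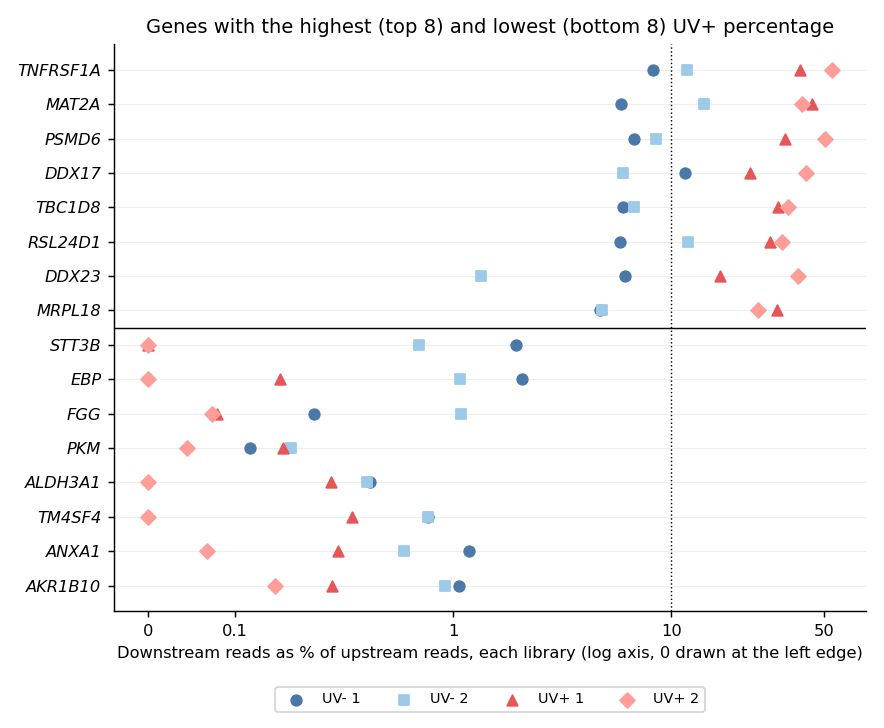
Downstream reads as a percentage of upstream reads in each of the 4 libraries (log axis, 0 drawn at the left edge) for the 8 genes with the highest and the 8 with the lowest UV+ percentage; the dotted line marks the limit of 10%. In the upper 8 genes every UV+ symbol lies above 10%, and in the lower 8 every symbol of the UV+ libraries lies below 1%.

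At the other end, 8 genes had the lowest UV+ percentages among those with at least 100 normalised upstream reads in UV+. STT3B, a catalytic subunit of the oligosaccharyltransferase, had 8 and 6 downstream reads in UV- and 0 in both UV+ libraries, beside 507 and 572 upstream reads in UV+. Its values were 1.95% and 0.698% in UV-, and 0 reads allow up to 0.592% and 0.524% in the UV+ libraries, for counting error only. EBP, an isomerase of sterol synthesis, had 7 and 6 downstream reads in UV- and 1 and 0 in UV+, with 339, 559, 621 and 526 upstream reads. FGG, the gamma chain of fibrinogen, had 2 and 13 downstream reads in UV- and 1 in each UV+ library. Its upstream reads, not scaled for depth, numbered 871 and 1204 in UV- and 1206 and 1277 in UV+. The upstream means of STT3B, EBP and FGG in UV+ were 0.756, 1.09 and 1.01 times those in UV-, while 0 or 1 downstream reads were left in each library. PKM, a pyruvate kinase, was already at 0.117% and 0.181% in UV- and had 0.166% and 0.0600% in UV+, so that its conditions overlapped. The aldehyde dehydrogenase ALDH3A1 had 0.415% and 0.404% in UV- and 0.276% in UV+ replicate 1, with 0 downstream reads of 1629 upstream reads in replicate 2. TM4SF4, a membrane protein with 4 transmembrane segments, had 0.762% in both UV- libraries and 0.342% in UV+ replicate 1, and again 0 downstream reads in replicate 2. The annexin ANXA1 went from 1.18% and 0.594% to 0.297% and 0.0743%, and AKR1B10, an aldo-keto reductase, from 1.06% and 0.914% to 0.279% and 0.153%. In all of these genes but PKM both UV+ libraries lay below both UV- libraries. With 0 to 9 downstream reads in each of the UV+ libraries of these 8 genes, counting error is large against the differences between them.

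No downstream read was found in either UV+ library in 5 of the 362 genes, namely STT3B, the integrin subunit ITGAV, the secreted netrin NTN4, the histone demethylase KDM3B and CDC42SE2. The upstream reads in UV+ numbered 59 and 26 in NTN4, 15 and 24 in KDM3B and 9 in each library in CDC42SE2. Taken singly, 0 reads allow a percentage above 10% in UV+ replicate 2 of NTN4 and in both UV+ libraries of KDM3B and CDC42SE2. Over both UV+ libraries together the limits were 3.53% in NTN4, 7.69% in KDM3B and 16.7% in CDC42SE2, so that only that of CDC42SE2 lay above 10%. Another 3 genes had no downstream read in either UV- library and entered through UV+. They were NOP2, a nucleolar RNA methyltransferase, ISCU, a scaffold of iron-sulfur cluster assembly, and ANKRD27. In UV+ they had 1.90%, 2.35% and 8.81%, where 0 reads in UV- allow up to 3.57% and 1.85% in NOP2, 2.75% and 1.79% in ISCU and 1.74% and 1.35% in ANKRD27. Of the 3, ANKRD27 had a UV+ mean above the limits of both UV- libraries, but it had 1 downstream read in UV+ replicate 1 (1.61%) and 10 in replicate 2. These UV- limits are those of single libraries. A limit over both UV- libraries together would be lower and was not computed, so NOP2 and ISCU are not shown to lie within it.

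The 5 most abundant genes differed widely in their percentages. TM4SF1, a relative of TM4SF4, had 5950 and 7759 upstream reads in UV- and 0.454% and 0.322% downstream, and in UV+ 0.564% and 0.0642%, so that its conditions overlapped. B2M, the light chain of MHC class I, had 12 and 6 downstream reads in UV- and 36 and 40 in UV+, or 0.372%, 0.128%, 0.493% and 0.536%. ALDH1A1, a retinaldehyde dehydrogenase, and AKR1C3, an aldo-keto reductase of steroids, had 6.97% and 5.39% in UV- and 0.623% and 2.01% in UV+. Together with AKR1B10, these 2 enzymes had lower percentages in UV+ in each library. With the 3 genes of most downstream reads in UV- (ALDH1A1, AKR1C3 and CA12) left out, the summed percentages of the other 359 were 2.81% and 2.77% in UV- and 3.69% and 3.41% in UV+. Since these 3 were picked by their UV- reads, leaving them out favours lower sums in UV-. Among genes with at least 300 upstream reads, the lowest UV- percentages were those of CAPNS1, the small subunit of calpain, PKM, the prion protein gene PRNP, ARPC3 of the Arp2/3 complex and TFRC, the transferrin receptor, with 0.0499% to 0.216%. All 5 entered the table only through UV+, where they had 0.107% to 3.39%.

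A higher percentage in UV+ arose from either window. Among the 49 genes at or above 10% in both UV+ libraries, the downstream mean was at least 2-fold higher in UV+ with an upstream mean that had not fallen 2-fold in 23 genes. In 15 genes the upstream mean was at least 2-fold lower and the downstream mean was not 2-fold higher, in 11 neither held, and in 0 both. The 23 genes had a median length of 14177 nt and a median upstream ratio of UV+ to UV- of 0.975, and they include MAT2A, PSMD6, MRPL18, RSL24D1, DDX17, KARS, RBMX and the mitochondrial channel VDAC3. The 15 genes had a median length of 43972 nt and a median upstream ratio of 0.225, and they include TNFRSF1A, TBC1D8, NCKAP1, BLMH, the ubiquitin-related E1 subunit UBA2 and the amino acid transporter SLC38A2. Of the 7 genes among the 49 that entered only through UV+, all were in the first class. Over all 362 genes, 103 were in the first class, 81 in the second, 3 met both conditions and 175 neither.

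**Figure D3:**
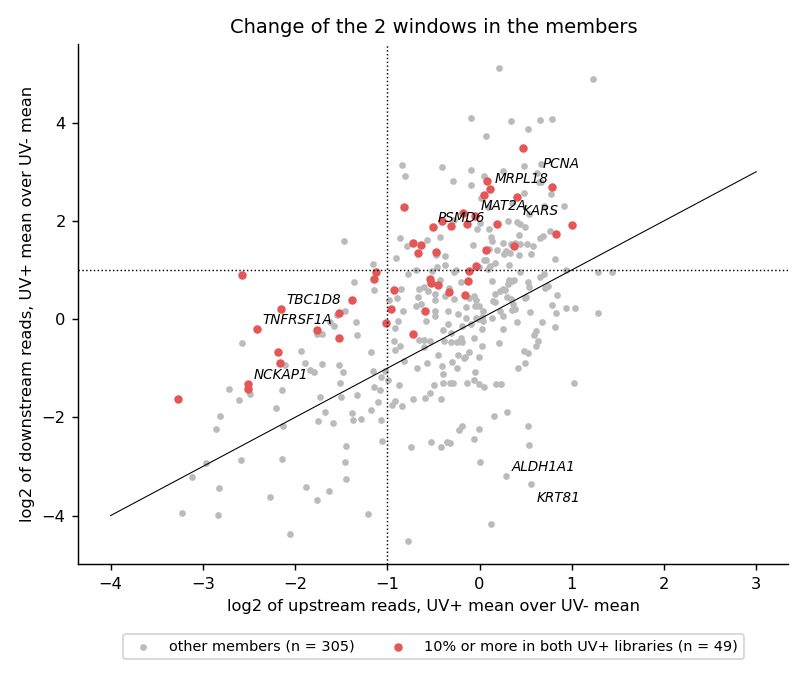
Log2 ratio of the UV+ mean to the UV- mean for the upstream window (horizontal) and the downstream window (vertical) of 354 genes; 8 genes with a mean of 0 in a condition are not drawn, the dotted lines mark a 2-fold fall upstream and a 2-fold rise downstream, and the solid line marks equal change. The 49 genes at or above 10% in both UV+ libraries (red) include 23 above the horizontal dotted line, 15 left of the vertical one and 11 that are neither.

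The length of the genes went with the change in both windows. In the 121 shortest genes (4031 to 16172 nt) the median upstream ratio of UV+ to UV- was 1.13, in the 120 of middle length (16197 to 39468 nt) it was 0.956 and in the 121 longest (39678 to 149451 nt) 0.516. Spearman's rho of length with the log2 upstream change was -0.56 over the 362 genes and -0.55 over all genes, and with the log2 downstream change -0.43 and -0.49, where the points share the same 4 libraries. The median percentages in these length classes were 2.89%, 3.24% and 4.66% in UV- and 4.76%, 4.34% and 4.14% in UV+, and 20, 14 and 15 genes were at or above 10% in both UV+ libraries. The route into the table went with length, with a median of 20960 nt in the 92 genes that entered only through UV+ and 28470 nt in the 270 others. Among the 270, the medians of the short, middle and long classes were 4.07%, 4.29% and 5.05% in UV- and 5.4%, 4.24% and 3.73% in UV+, for 87, 76 and 107 genes.

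In the fit of all 4 libraries across all 4208 genes, limma with an unadjusted p under 0.05 called a higher downstream/upstream ratio in UV+ in 47 of the 362 genes, where it called 11% of all genes, and a lower ratio in 11, where it called 2.4% of all genes. The UV- values of this contrast chose the genes, and nothing is read from these counts. With adjusted p-values limma called 0 higher (0.143% of all genes) and 1 lower (0.0238%). Unadjusted, edgeR called 78 higher (10.9%) and 30 lower (3.04%), and adjusted 7 (0.499%) and 2 (0.0713%). DESeq2 called 51 higher (6.39%) and 18 lower (1.59%) unadjusted.

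To measure the genes against UV- values that had no part in choosing them, the same rule was applied to 1 UV- library alone, with at least 10 downstream reads required in that library, so that neither the other UV- library nor UV+ decided which genes were in the table. UV- replicate 1 chose 80 genes in this way, 73 of them among the 362, and UV- replicate 2 chose 173, 160 of them among the 362. The UV+ libraries were then compared with the UV- library that had not been used. In the 80 genes the median was 5.32% in the choosing library, 4.40% in the held-out UV- library and 4.49% and 3.39% in UV+ replicates 1 and 2. In the 173 genes it was 5.18%, 4.26%, 5.64% and 3.95% in the same order. In both sets the held-out UV- median lay between the medians of the 2 UV+ libraries. The median log2 change of the ratio, UV+ minus held-out UV- on the log2(value + 1) scale, was -0.14 for the 80 genes and 0.23 for the 173, beside 0.38 and 0.36 over all genes, which include genes that entered only through UV+. With UV+ replicate 2 left out, that of the 80 genes was 0.13, and with UV+ replicate 1 left out -0.32, so that its direction rested on which UV+ library was used. Without the minimum of 10 downstream reads the medians were 0.36 for 364 genes and 0.42 for 366. These larger sets again include genes that are in the table only through UV+, a route that favours a higher UV+ value. At or above 10% were 9 of the 80 genes in the held-out UV- library and 23 and 15 in the UV+ libraries, and 25 of the 173 in the held-out UV- library and 50 and 43 in the UV+ libraries. The medians of the UV+ libraries thus lay on both sides of the held-out one, and more genes lay at or above 10% in each UV+ library than in the held-out one. The held-out library shares its condition with the library that chose genes below 10%, which by itself favours fewer genes at or above 10% in it. The part of this choice in these counts was not tested. Over all genes, 72.1% and 71.5% lay at or above 10% in UV- replicates 2 and 1. In UV+ replicates 1 and 2 the shares were 79.1% and 70.2%, so that over all genes only UV+ replicate 1 was above the UV- libraries. Abundant genes at or above 10% in the choosing library had median log2 changes of 0.13 (139 genes, chosen on replicate 1) and 0.17 (153 genes, replicate 2).

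**Figure D4:**
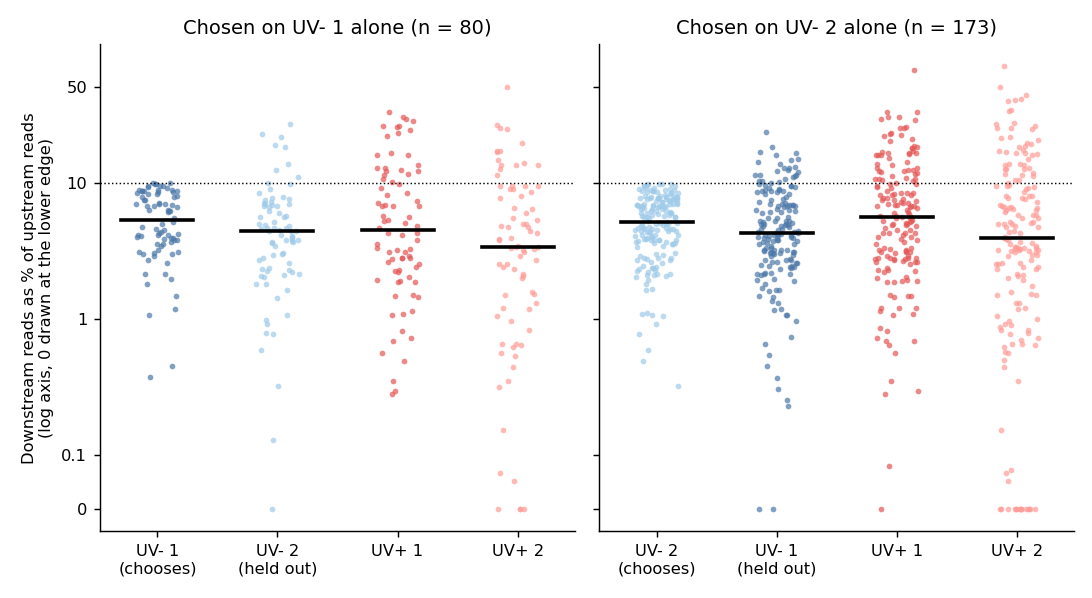
Downstream reads as a percentage of upstream reads (log axis, 0 drawn at the lower edge) of the genes chosen on 1 UV- library alone, in that library, in the held-out UV- library and in each UV+ library; points are genes, black bars medians and the dotted line the limit of 10%. The medians lie between 3.39% and 5.64% in all 8 columns, and 9 and 25 genes lie at or above 10% in the held-out UV- libraries, against 15 to 50 in the UV+ libraries. The held-out libraries share the condition of those that chose genes below 10%.

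By limma with an unadjusted p under 0.05, the ratio was higher in UV+ than in the held-out UV- library in 9 of the 80 genes, beside 5.99% of all genes, and lower in 4, beside 0.856%. Of the 173 genes, 16 were higher, beside 5.16% of all genes, and 5 lower, beside 1.12%. With adjusted p-values limma called 0 in either set, beside 0.0238% of all genes higher and 0% lower in each comparison. Unadjusted, edgeR called 10 of the 80 genes higher (6.44% of all genes) and 6 lower (1.52%), and adjusted 1 higher (0.238%) and 2 lower (0.0475%). Of the 173 genes it called 19 higher (4.54%) and 13 lower (1.59%) unadjusted, and 0 higher (0.166%) and 2 lower (0.0951%) adjusted. DESeq2 called 7 higher (2.64%) and 4 lower (0.76%) of the 80 unadjusted, and 7 higher (1.57%) and 11 lower (0.713%) of the 173. In each direction and with each tool the share of the chosen genes called unadjusted was above that of all genes. Chosen genes have more upstream reads than most, with a median of 215 normalised reads in UV- over the 362 against 26.9 over all genes, and the part of this depth in the calls was not tested. In these fits 1 UV- library stands against 2 UV+ libraries, and its spread is assumed to be that of the UV+ pair. Both comparisons share the UV+ libraries.

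The genes with a higher ratio against the held-out library are given first. MRPL18 was higher by 2.41 ± 0.56 (SE, log2) against UV- replicate 2 and by 2.47 ± 0.56 against replicate 1, with unadjusted limma p of 0.00324 and 0.0026 and adjusted p of 0.658 and 0.686. PSMD6 was higher by 2.21 ± 0.60 and 2.53 ± 0.62. KARS, the lysyl-tRNA synthetase, was higher by 2.19 ± 0.58 and 1.79 ± 0.56. It had 13 and 14 downstream reads in UV- and 122 and 68 in UV+, and 250 nt of its downstream window are annotated as exon. RBMX, an RNA-binding protein of splicing, was higher by 2.56 ± 0.68 and 1.88 ± 0.65, with 11 downstream reads in each UV- library and 43 and 37 in UV+. GNB2L1, the ribosome-bound scaffold RACK1, was higher by 1.54 ± 0.54 and 1.48 ± 0.55, with 16 and 30 downstream reads in UV- and 65 and 83 in UV+. In each of these 5 genes every UV+ library was above both UV- libraries. All but GNB2L1 were named for a small p in the held-out comparisons, and the other UV- library chose them for a low ratio, so this is a description. PCNA, the sliding clamp of DNA replication, had enough downstream reads in UV- replicate 1 only. Against replicate 2 it was higher by 3.47 ± 0.63, with an adjusted p of 0.484 in limma and 0.00381 in edgeR, from 11 and 5 downstream reads in UV- to 95 and 77 in UV+. It was the gene with a higher ratio that passed the adjusted threshold in edgeR. CLNS1A, a factor of snRNP assembly, and the translation factor EIF4G2 had enough reads in UV- replicate 2 only, and were higher by 2.43 ± 0.67 and 2.12 ± 0.72, and all 500 nt of the downstream window of CLNS1A are annotated as exon. Without the trend in limma the calls of KARS in both comparisons, of PSMD6 against UV- replicate 2 and of EIF4G2 were lost, and with DESeq2 that of KARS against replicate 1.

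Among the genes with a lower ratio, ALDH1A1 fell by 3.14 ± 0.44 and by 3.79 ± 0.44 on the log2 scale, with adjusted p of 0.319 and 0.0887 in limma and 3.58e-07 and 1.31e-10 in edgeR. KRT81, a hair keratin, fell by 3.18 ± 1.1 and by 3.93 ± 1.1, with adjusted p of 0.00739 and 0.000161 in edgeR and 0.725 and 0.761 in limma. It had 25 and 34 downstream reads in UV- and 4 and 3 in UV+, while its upstream mean was 1.47 times as high in UV+. AKR1C3 had a ratio lower by 1.18 ± 0.45 against replicate 2, and it fell by 1.62 ± 0.45 against replicate 1, both at an unadjusted limma p under 0.05. PLK2, a kinase induced by p53, was called against UV- replicate 2 only and fell by 1.67 ± 0.61, with 14 and 45 downstream reads in UV- and 32 and 37 in UV+ and an upstream mean 2.43 times as high in UV+. This call was lost in limma without trend and in DESeq2, as was that of AKR1C3 against replicate 2. Without trend those of AKR1C3 against replicate 1 and of FADS1 were lost too. EDARADD, an adaptor of ectodysplasin signalling, and the fatty acid desaturase FADS1 fell by 2.96 ± 1.1 and by 2.13 ± 0.85 against UV- replicate 1. Limma called both genes in this comparison only. Against UV- replicate 2 their log2 changes were -2.04 ± 1.1 and -1.18 ± 0.91. AKR1B10 had a log2 change of -1.93 ± 0.97 against UV- replicate 2, with an unadjusted p of 0.0848 in limma and 0.0015 in edgeR. In ALDH1A1, KRT81, AKR1C3, AKR1B10, EDARADD and FADS1 both UV+ libraries lay below both UV- libraries, as they did in PLK2, where UV- replicate 1 came nearest. These genes were named for a small p in the held-out comparisons, so this is a description.

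The 2 windows were also compared with the held-out library one by one. The median log2 change of the downstream reads was -0.60 for the 80 genes and -0.35 for the 173. It was -0.06 and 0.05 for the 364 and 366 genes chosen without the minimum of 10 downstream reads, which include genes in the table only through UV+. The median log2 change of the upstream reads was -0.34 and -0.35 for the 80 and the 173 genes. All genes had -0.28 and -0.22 upstream and 0.20 and 0.15 downstream. For the upstream window limma called 4 higher and 25 lower of the 80 genes unadjusted, beside 10.4% and 14.4% of all genes, and 14 and 60 of the 173, beside 11.5% and 14.7%. For the downstream window it called 9 higher and 8 lower of the 80, beside 12.8% and 8.01%, and 18 and 14 of the 173, beside 12.8% and 7.89%. Lower calls in the upstream window thus made up a larger share of the chosen genes than of all genes. For the downstream window limma's shares were near those of all genes. With edgeR, 9 of the 80 genes were higher there (14.2% of all genes) and 16 lower (8.06%), and of the 173 genes 20 were higher (12.1%) and 17 lower (7.2%).

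Grouped by function, 210 of the 362 genes were in at least 1 of 15 lists and 152 in none, 1 of the 362 having a date in place of its symbol. The share of genes at or above 10% in both UV+ libraries, 13.5% over all 362, is the measure to set beside each list. This share went with abundance, as it was 11 of 191 (5.76%) with an upstream minimum of 200. The lists were not matched for upstream reads, and the part of abundance in the differences between them was not tested. Proteins that bind or splice RNA had 7 of 14, with medians of 4.49% in UV- and 10.2% in UV+, and these were DDX17, DDX23, SNRPA, RBMX, SNW1, HNRNPAB and HNRNPH1. Among the 11 that entered through UV- it was 4 of 11, with medians of 5.03% and 6.73%, beside 42 of 270 (15.6%) of all genes that entered this way. SNRPA, the A protein of the U1 snRNP, had 3.81% and 25.2%, and SNW1, a spliceosome protein, 4.07% and 18.1%, and both entered only through UV+, as did DDX23. SF3B1, the most abundant gene of that list and a subunit of the U2 snRNP, had 3.70% and 5.97% in the UV- libraries and 7.04% and 6.41% in the UV+ libraries, and all 500 nt of its downstream window are annotated as exon. C14orf166, a subunit of the tRNA ligase complex whose window is likewise all exon, had 2.18% and 6.34%.

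Translation factors and aminoacyl-tRNA synthetases had 3 of 12 at or above 10%, KARS, the seryl-tRNA synthetase SARS and GCN1L1, with medians of 3.51% and 6.87%. Of the 9 that entered through UV-, 2 reached 10% (KARS and GCN1L1), all 9 had a higher percentage in UV+, and the medians were 3.43% and 6.91%. EEF1G, an elongation factor subunit, had 2.74% and 1.53% in UV- and 3.96% and 0.906% in UV+, so that its conditions overlapped. Among nucleolar and ribosome assembly factors 2 of 11 reached 10%, RSL24D1 and nucleolin (NCL), and all 11 had a higher percentage in UV+, but 9 of them had entered only through UV+, a route that favours a higher UV+ value. NCL had 10.0% and 7.84% in UV- and 25.4% and 12.5% in UV+, with exon annotated over all 500 nt of its downstream window. The helicase DDX24 had 0.595% and 1.92%, and WDR43, a small-subunit assembly factor, 1.74% and 7.85%. Mitochondrial import, ribosome and respiration genes had 4 of 19 at or above 10%, MRPL18, VDAC3, TOMM40 and MRPL3, and medians of 2.25% and 4.66%. Without the 7 that entered only through UV+, TOMM40 among them, it was 3 of 12, with medians of 3.76% and 5.50% and a higher percentage in UV+ in 8 of 12. TOMM5, a small subunit of the outer-membrane import complex, went from 0.252% and 1.11% to 1.47% and 1.92%, and ATP5B, the beta subunit of ATP synthase, from 2.61% and 1.94% to 3.98% and 5.18%. IARS2, the mitochondrial isoleucyl-tRNA synthetase, went the other way, from 3.55% and 4.64% to 1.07% and 3.31%.

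Genes of vesicle coats and traffic had 3 of 16 at or above 10% (COPB1, RAB5A and TFG) and medians of 3.86% and 7.79%, and 3 of the 12 that entered through UV-, with medians of 4.89% and 10.8%. TMED2, a cargo receptor and the most abundant of them, had 1.96% and 2.28% in UV- and 2.89% and 3.35% in UV+, so that its conditions did not overlap. The retrieval receptor KDELR2 had 1.79% and 1.53% and the small GTPase ARF4 2.61% and 2.70%, and the conditions of both overlapped. Chaperones, proteasome subunits and ubiquitin enzymes had 3 of 22 (PSMD6, FBXO21 and UBA2), which is close to the share over all 362 genes, and 3 of the 16 that entered through UV-, where the medians were 5.21% and 3.64%. HSPA8, the constitutive cytosolic HSP70, had 2.45% and 2.75%, and the proteasome subunits PSMA4 and PSMC4 had 2.92% and 2.78%, and 9.65% and 10.1%. In the list of endoplasmic reticulum folding, translocation and glycosylation 1 of 10 reached 10% (CCDC47), with medians of 2.79% and 2.2% in the 6 that entered through UV-, and the chaperone HSP90B1 went from 3.09% and 1.80% to 0.808% and 0.961%. RPN1, a subunit of the same oligosaccharyltransferase as STT3B, had 0.681% and 1.30%.

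In the lists of redox, cytoskeleton, lysosome, sterol, glycolysis and secreted genes, 0 genes were at or above 10% in both UV+ libraries. Redox, xenobiotic and NADPH enzymes had 0 of 14, medians of 2.73% and 1.54%, and a lower UV+ percentage in all but 2, BLVRA and PRDX6. In 9 of the 14 both UV+ libraries lay below both UV- libraries, beside 14.5% of all genes and 62 of the 270 genes that entered through UV-, and all but 1 of the 14 entered that way. Cytoskeleton and annexin genes had 0 of 24, with medians of 2.11% and 1.45%, and 15 of the 24 had a higher percentage in UV+, which is near the 63.8% of the 362 genes. Both UV+ libraries lay above both UV- libraries in 8 and below them in 5, beside 32.7% and 14.5% of all genes. The 18 that entered through UV- had medians of 3.13% and 2.02%. Of this list ANXA2, the most abundant, had 0.369% and 0.491% in UV- and 1.21% and 0.779% in UV+. Lysosome and autophagy genes had 0 of 15, with medians of 1.92% and 1.38%, and 9 of the 15 had a higher percentage in UV+, again near the share of the 362 genes. The conditions did not overlap in 4 in each direction, beside 32.7% of all genes higher and 14.5% lower. The 7 that entered through UV- had medians of 2.33% and 0.867%, with 2 higher in UV+, and of the 8 others 7 were higher. PSAP, the precursor of the saposins, had 0.680% and 0.867%, LAPTM4A 0.767% and 0.338% and ATP6V0E1, a subunit of the vacuolar ATPase, 1.92% and 1.38%. Sterol and lipid synthesis genes had 0 of 12, with medians of 3.42% and 2.86% and a higher percentage in UV+ in 6 of 12. The 8 that entered through UV- had medians of 5.93% and 2.31%, with 2 higher in UV+. Of this list CYP51A1, a demethylase of sterol synthesis, had 2.43% and 2.85%. Glycolysis genes had 0 of 3, and the enolase ENO1 had 2.80% and 3.50% and the lactate dehydrogenase subunit LDHB 8.66% and 3.27%. Secreted proteins had 0 of 7, with medians of 4.38% and 1.50% in the 6 that entered through UV-, and with IGFBP4 and IGFBP3, binders of insulin-like growth factors, at 3.20% and 2.62% and at 0.835% and 0.374%. Adhesion molecules and surface receptors had 2 of 28, TNFRSF1A and LRP4, and medians of 2.52% and 2.59%, and 17 of the 28 had a higher percentage in UV+. The 21 that entered through UV- had medians of 2.89% and 2.46%, with 10 higher in UV+, so that the direction of the median turned. ATP1B1, a subunit of the sodium pump, had 1.43% and 2.46% with an upstream ratio of UV+ to UV- of 0.307. Of the 3 targets of p53, CCNG1, cyclin G1, had 10.2% and 7.69% in UV- and 18% and 16.5% in UV+, PCNA had 2.12% and 10.7%, and PLK2 6.26% and 2.82%, and the upstream means of these 3 were 2.00, 1.54 and 2.43 times as high in UV+.

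**Figure D5:**
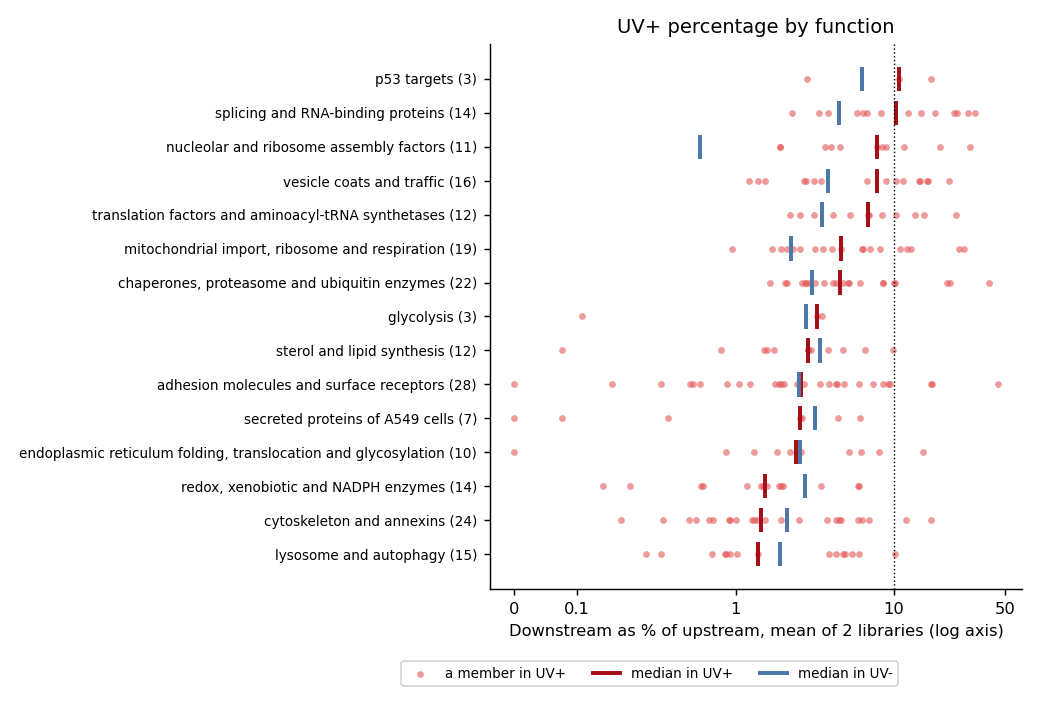
Downstream reads as a percentage of upstream reads in UV+ (points, mean of 2 libraries, log axis with 0 drawn at the left edge) for the genes of 15 lists, with the number of genes in parentheses; red bars are UV+ medians, blue bars UV- medians and the dotted line the limit of 10%. The splicing and RNA-binding list has a UV+ median of 10.2%, and the redox, cytoskeleton and lysosome lists have the lowest UV+ medians, 1.54%, 1.45% and 1.38%.

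Annotated exons beyond the PAS were found in a smaller share of the 362 genes than of the 143 genes at or above the limit, which had fewer upstream reads. On the same strand, 62 of the 362 downstream windows (17.1%) had at least 250 nt of annotated exon, against 73 of 143 (51.0%) of the genes at or above 10% and 30.0% of all genes. Of the 62, 7 were at or above 10% in both UV+ libraries, beside 42 of the other 300. Of the 49 and 221 in these classes that entered through UV-, 7 and 35 were. The median UV+ percentage was 4.25% in the 62 and 4.41% in the 300, and 5.05% and 4.38% in the 49 and the 221, so that which class was higher depended on the route.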

How the data were processed

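Nuclear RNA of A549 cells was sequenced in 2 UV+ and 2 UV- libraries. The deposited signal is the authors' number of reads in windows of 500 nt upstream and downstream of each RefSeq PAS and divided by 1 size factor per library. Per the methods, reads were trimmed with cutadapt, aligned to hg19 with TopHat2, filtered with SAMtools (mapping quality of 20) and counted with featureCounts in R 3.4.0, downstream windows overlapping another gene were discarded, and at least 10 reads were required in both windows in either condition. Columns of the authors' own comparison (mean, log2 fold changes, Wald statistic, p-values) were not used. Multiplied by the size factors, 100.0% of the 33664 values were whole reads to within 1e-06. The size factors were 0.719 and 1.22 in UV- replicates 1 and 2 and 1.23 and 1.03 in UV+ replicates 1 and 2. Read numbers given for single libraries are not scaled by them, and those of UV- replicate 1 are lower for its depth. Percentages per library are ratios of these reads, and percentages per condition are ratios of the mean normalised values.

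Ratios, upstream and downstream values on the log2(value + 1) scale were tested with limma 3.58.1 (R 4.3.3), using its trend option, across all 4208 genes with Benjamini-Hochberg adjustment, at an unadjusted and an adjusted p under 0.05. Fold changes on that scale understate the change of low genes. Alternatives were a pseudocount of 0.5 or 5, limma without trend, edgeR 4.0.16 and DESeq2 1.42.0 on the recovered reads, a mean of at least 10, TMM factors, a limit of 5%, an upstream minimum of 200, rows without exons, the replicate block and leaving out each library. The ratio fits of limma, edgeR and DESeq2 were tried on simulated data, for all 4 libraries and for UV+ against UV- replicate 2. The fits of single windows, the fit against UV- replicate 1 and the other settings were not. Counts for the 270 genes that entered through UV- were added after the data were examined. With 2 libraries per condition an exact test cannot fall below 0.33. The libraries are described as separate biological replicates, and p-values measure only the spread between them. Depth, 262657 to 481798 upstream reads per library, limits the precision, and intervals of 0 reads (3 reads over the upstream reads) cover counting error only. In 3 rows the name and position cells were shifted. Sequences were read from GRCh37 (hg19), and exons from GENCODE 44 lifted to it.

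Genes named are the 5 most abundant, the 5 lowest in UV- with at least 300 upstream reads, the 8 highest and 8 lowest in UV+, the 3 nearest the limit on each side, up to 5 in each direction of each held-out comparison and the 3 most abundant of each list, with other list members named to complete a count. A gene that this rule names is not reported here. The genes, lists and rules were chosen with earlier results of these data known.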

Additional observations from a re-analysis of the deposited data

How the results depend on the processing

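For the 362 genes, the median log2 change of the ratio over all 4 libraries was 0.46. It was 0.20 with an upstream minimum of 200 and 0.16 for the 270 genes that entered through UV-, and 0.44 to 0.65 when each library was left out. The 47 genes higher at an unadjusted p were 82 with a pseudocount of 5, 78 with edgeR, 21 with an upstream minimum of 200, 25 among the 270 genes and 26 (without UV- replicate 1) to 42 with a library left out. The 11 lower genes were 30 with edgeR, 18 with DESeq2, 6 with a limit of 5% and 4 (without UV- replicate 1) to 29 (without UV+ replicate 1) with a library left out. The replicate block gave a median of 0.46 with 48 higher and 11 lower genes, and over all genes it moved the calls from 464 and 101 to 493 and 115. Samples with the same replicate number deviated with a correlation of 0.03 in the ratio, so that the numbers were not taken as pairs.

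The 49 genes at or above 10% in both UV+ libraries were 11 of 191 with an upstream minimum of 200, and 49 to 87 with a library left out, where 77 and 87 are the genes of UV+ replicates 2 and 1 alone.

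Against the held-out UV- library, the median of the 80 genes was 0.36 without the minimum of downstream reads, and -0.32 to 0.13 with a UV+ library left out. Here and below, sets without the minimum include genes in the table only through UV+, which favours a higher UV+ value. That of the 173 genes was 0.54 with a pseudocount of 5 and 0.14 to 0.44 with a UV+ library left out. The calls of the 80 genes, 9 higher and 4 lower, were 4 and 2 without trend, 4 and 1 with a limit of 5%, and 25 higher without the minimum. Those of the 173, 16 higher and 5 lower, were 6 and 3 without trend, 7 and 11 with DESeq2, 10 and 3 with a limit of 5%, 13 lower with edgeR and 29 higher without the minimum. With 1 library on each side no test was run. The upstream medians were -0.13 and -0.16 with TMM factors, and with a UV+ library left out -0.37 to -0.35 for the 80 genes and -0.35 to -0.31 for the 173. The downstream medians then were -0.91 to -0.34 and -0.41 to -0.23. Of 20 comparisons of named genes with the held-out library none reversed, and calls were lost without trend (8, of KARS and AKR1C3 in both comparisons, PSMD6 and PLK2 chosen on UV- replicate 1, EIF4G2 and FADS1 chosen on replicate 2) and with DESeq2 (3, of PLK2 and AKR1C3 chosen on replicate 1 and KARS chosen on replicate 2). At a median of 6 and 9 downstream reads per gene in the UV- libraries, differences in single genes are often within counting error.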
